A study of Rattus norvegicus with 8 samples.

Results

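The TAM receptors and the genes of apoptotic cell uptake were described here by 9 listed genes: the receptor tyrosine kinases Tyro3, Axl and Mertk, their ligands Gas6 and Pros1, the bridging protein Mfge8 with the integrin subunit Itgav, and the receptors Timd4 and Cd93. The genes were chosen by name, with earlier results of these data known, and found through the gene name that the array design gives each probe. They were measured by 10 of the 45598 probes of the array, and 6 of the 9 genes were bright enough to be among the 15651 genes tested. RNA came from NR8383, an established line of rat alveolar macrophages first obtained from the lavaged lung of a normal rat, in which attached and floating cells grow side by side. Cells at passage 20 (P20) were compared with cells at passage 200 (P200), with 4 biological replicates in each group. The labels state no treatment and no engineered genetic change for either group. Every flask was seeded 48 h before harvest, and each array received labelled RNA made from 100 ng of total RNA. All arrays come from a single cell line, so the replicates share its origin, and the p-values below measure the spread between these arrays only. The sample titles do not say how the P20 and P200 cultures were related.

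A macrophage that takes up a dying cell first recognises phosphatidylserine, a lipid that living cells keep on the inner leaflet of the plasma membrane. The TAM kinases do so at one remove: Gas6 and protein S (the product of Pros1) bind the lipid at one end and the receptor at the other, and the same kinases restrain inflammatory signalling. Milk fat globule protein (Mfge8) links the lipid to integrins that contain the alpha V subunit (Itgav), whereas TIM-4 (Timd4) binds the lipid itself. Alveolar macrophages clear dead cells from the airspace and are known to express Axl and Mertk. Cd93, a C-type lectin first studied as a receptor in phagocytosis, is also an endothelial gene.

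Each gene was read through 60-base oligonucleotides, and the last 30 bases of the probe are given for the 6 genes that were above background, since these are the sequences to which every value below refers. Capitals mark AATAAA, the canonical polyadenylation signal, searched on the strand printed.
Tyro3: tattaagttgctgtttcaaaacAATAAAat
Axl: ggacgctatgtcctttgtccttctacagcc
Mertk: gtgtgttaccagaggacagactcaccaaaa
Gas6: cagggtcagggacacacagcaccatctcct
Mfge8: ctttgagaaacctttcatggctcgctatgt
Itgav: tgtgactgtatAATAAActtgaacatctgg
The Tyro3 and Itgav probes and 1 of the 2 Timd4 probes carried AATAAA, which makes 3 of 10 member probes, against 9.04% of all 45598 probes. On rat assembly rn4, as the array design gives it, the Tyro3 probe lies at chr3:106328542-106328601, the Axl probe at chr1:80964817-80964876 and the Mertk probe at chr3:116416248-116416307. The Gas6 probe lies at chr16:80930560-80930619, the Mfge8 probe at chr1:134870731-134870790 and the Itgav probe at chr3:67032799-67032858. No annotation of that assembly was used here, so exon and UTR positions are not given.

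The sequences before the starts of the 3 receptor genes are shown because Tyro3 passed the test between passages and the related kinases Axl and Mertk did not. RefSeq promoter windows on assembly GRCr8 matched 8 of the 9 genes, and the 250 bases before each start were used. They lie at chr3:127231653-127231902 on the plus strand for Tyro3, at chr1:90424010-90424259 on the minus strand for Axl and at chr3:136392324-136392573 on the plus strand for Mertk. Capitals mark the letters GGGCGG on either strand, the core of the GC box.
Tyro3: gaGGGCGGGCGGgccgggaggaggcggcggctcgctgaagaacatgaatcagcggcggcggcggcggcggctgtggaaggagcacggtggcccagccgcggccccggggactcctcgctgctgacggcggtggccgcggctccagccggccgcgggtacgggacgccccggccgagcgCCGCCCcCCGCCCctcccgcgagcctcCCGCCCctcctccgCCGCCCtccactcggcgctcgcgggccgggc
Axl: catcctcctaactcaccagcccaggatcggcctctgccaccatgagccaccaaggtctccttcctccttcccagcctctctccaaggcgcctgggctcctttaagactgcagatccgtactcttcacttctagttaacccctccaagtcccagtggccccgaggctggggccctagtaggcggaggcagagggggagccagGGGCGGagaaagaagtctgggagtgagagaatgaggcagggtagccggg
Mertk: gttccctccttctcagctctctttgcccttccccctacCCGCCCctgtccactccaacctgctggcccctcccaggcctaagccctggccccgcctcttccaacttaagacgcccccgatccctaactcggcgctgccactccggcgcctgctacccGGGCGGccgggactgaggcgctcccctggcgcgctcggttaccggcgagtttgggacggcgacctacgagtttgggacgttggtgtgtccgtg
The Tyro3 window held 82% G and C and 41 CpG dinucleotides, against a median of 51.2% and 5 over 33469 windows of the same length, and 99.5% of windows had no more G and C. The Axl window held 61.6% and 7 CpG, and the Mertk window 68% and 22 CpG. GGGCGG occurred 6 times in the Tyro3 window with overlapping matches counted, once in that of Axl and 2 times in that of Mertk, and 30.5% of all windows held it. It occurred 3 times each in Gas6, Pros1 and Mfge8, 2 times in Itgav and 0 times in Timd4, whose window was 50.4% G and C. TATAAA was in 0 of the 8 windows (12.9% of all), and the Tyro3 window held the AP-1 letters TGANTCA, which 6.34% of windows hold. GAGGAA, the core bound by the macrophage factor PU.1, occurred once each in Axl, Mfge8 and Itgav (23.3% of all), and CACGTG in 0 of 8 (5.59% of all). These matches describe the letters and were not set against expression.

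The 8 arrays shared 1 slide and 1 scan. On each, 51.02% to 54.47% of spots were marked well above background by the scanner software, which is the sense of above background below, and 0 were saturated. The processed signal had its 75th percentile between 978.75 (P200 replicate 4) and 1869.1 (P200 replicate 1). Levels are given as log2 of processed signal less that percentile of the same array, so 0 is the level that 75% of spots lie below. Groups were compared with limma, and a gene passed at a Benjamini-Hochberg adjusted p under 0.05 over 15651 genes. Of these, 915 (5.85%) were higher and 876 (5.6%) lower at P200, 11.4% in all. Of 13 general macrophage markers 12 were above background, all but Adgre1, and their summed linear signal, in units of the array's 75th percentile, was 288 to 334 at P20 and 273 to 288 at P200. Of 10 alveolar macrophage markers on the array, the 7 tested (Siglec5, Fabp4, Mrc1, Fabp5, Krt79, Pparg and Cd9) were above background on all 8 arrays. Car4 and Chi3l1 were above background on 0 arrays and Marco, a defining scavenger receptor of that cell, on 1 array.

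Of the 9 genes, 1 rose from passage 20 to passage 200, 0 fell, 5 did not pass the test and 3 were too dim to test. Tyro3 rose 1.59-fold. The other TAM kinases, Axl and Mertk, were measured on all 8 arrays and did not pass, and neither did Gas6, Mfge8 or Itgav. The 1 higher and 0 lower calls among 6 tested genes stand beside 5.85% and 5.6% of all tested genes, 11.4% in either direction, and the median change of the 6 was -0.05 against 0.004 over all 15651 genes.

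**Figure D1:**
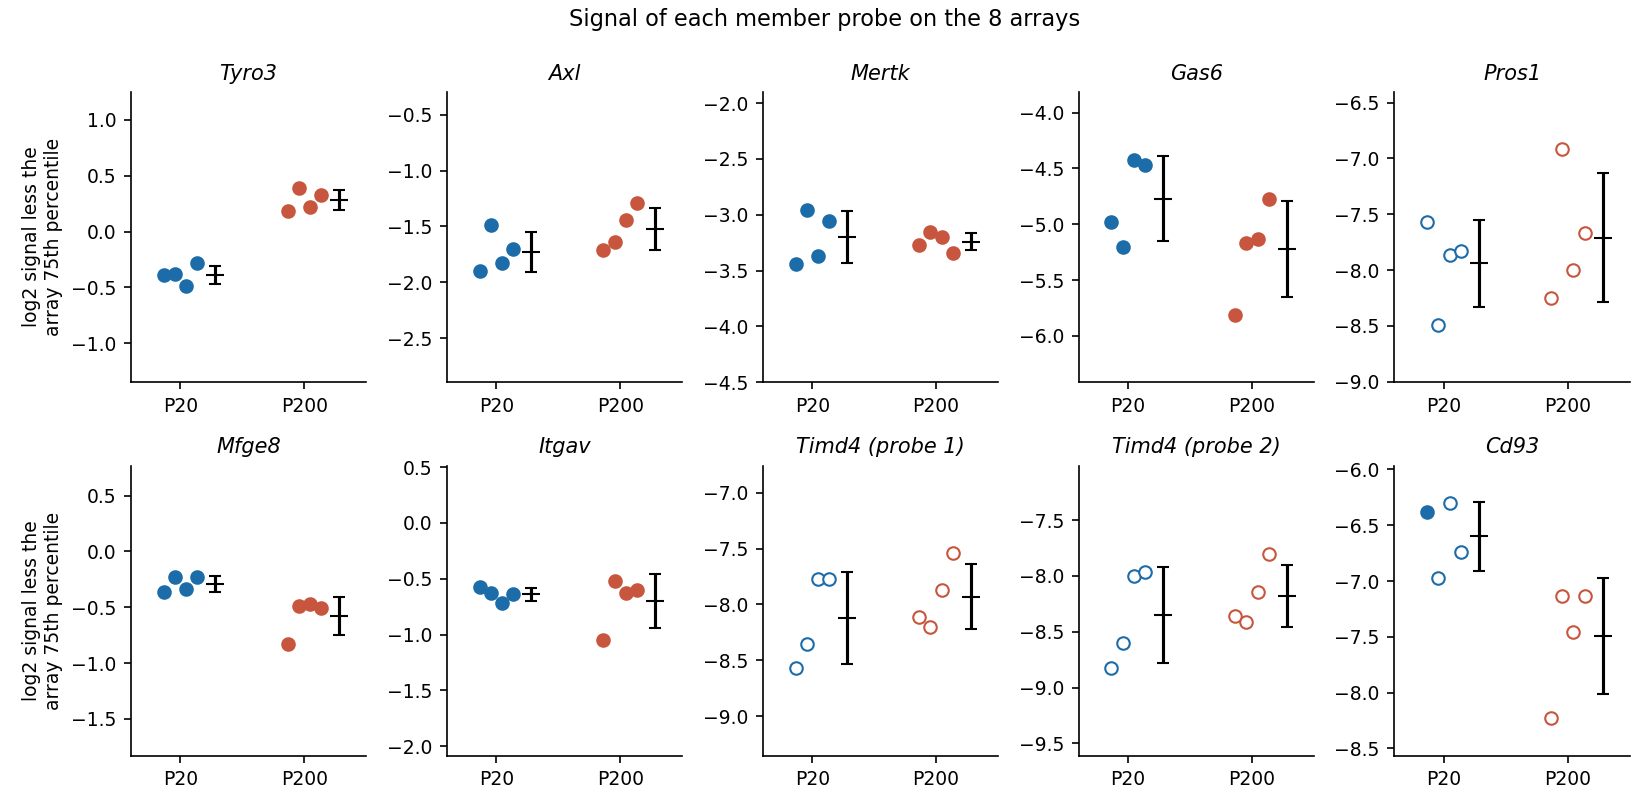
Level of each of the 10 probes on the 8 arrays, as log2 processed signal less the array's 75th percentile, with 4 P20 arrays in blue and 4 P200 arrays in red in replicate order. Filled circles are well above background, open circles are not, and bars show the mean and SD (n = 4). Tyro3 is at -0.49 to -0.28 at P20 and 0.18 to 0.39 at P200; the panels span equal heights but different levels.

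Tyro3, the TAM kinase best known from the nervous system, was at -0.39, -0.38, -0.49 and -0.28 in P20 replicates 1 to 4. At P200 it was at 0.18, 0.39, 0.22 and 0.33. The groups did not overlap: the lowest P200 array lay above the highest P20 array, as in 9.65% of all tested genes. The mean was -0.39 ± 0.08 at P20 and 0.28 ± 0.09 at P200 (SD, n = 4 each), a change of 0.66 ± 0.07 (SE, 95% interval 0.51 to 0.82), which passed the test (limma, adjusted p = 0.000428). By p it ranked 357 among the genes tested, and its absolute change was at the percentile 94.7. Before scaling, the processed signal was 969 to 1310 at P20 and 1230 to 2130 at P200. There the groups overlapped, with P200 replicate 4, the array with the lowest 75th percentile, at 1230. Under 20 other ways of processing or leaving out an array, the change stayed between 0.63 and 0.73 with adjusted p between 8.33e-05 and 0.00958 (limma). Some of these ways leave the Tyro3 values as they are, as given in the closing section.

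The Tyro3 probe was printed 10 times on each array, whereas the other member probes were printed once, so Tyro3 alone gives a view of the error within an array. The SD over its 10 spots was 0.036 to 0.062 on 7 arrays and 0.171 on P200 replicate 1. On that array the spots ran from -0.27 to 0.35, and none was marked as an outlier by the scanner software. Its lowest spot therefore lay within the range of the P20 spots, whose highest was -0.2, while the other spots of that array lay above it. With the median of the spots in place of their mean the change was 0.67 (limma, adjusted p = 0.000286), a setting chosen after these spots were seen.

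**Figure D2:**
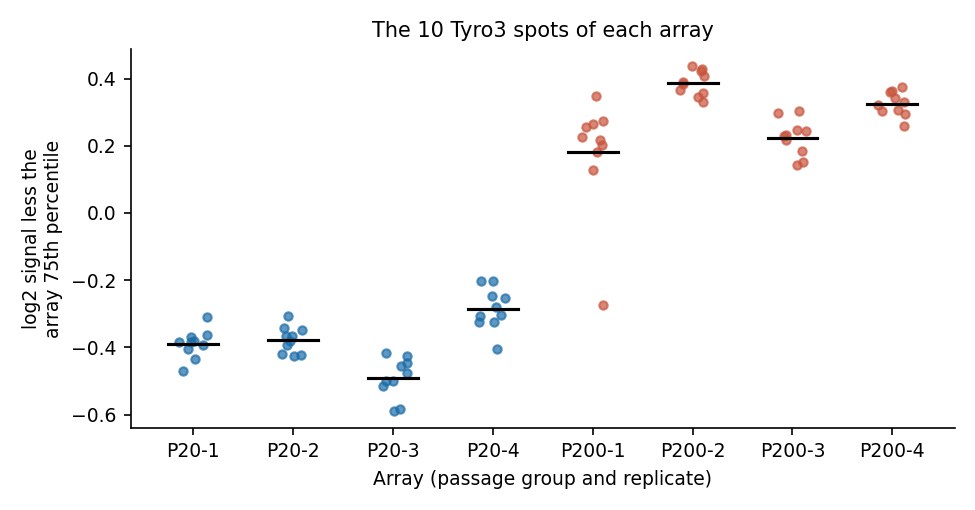
The 10 Tyro3 spots of each of the 8 arrays, as log2 processed signal less the array's 75th percentile, P20 in blue and P200 in red; the horizontal bar is the mean of the array. P200 replicate 1 has 1 spot at -0.27, apart from its others, and the SD over spots on the other 7 arrays is 0.036 to 0.062.

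Axl, the TAM kinase that Gas6 binds most tightly, was at -1.9, -1.49, -1.83 and -1.7 in P20 replicates 1 to 4 and at -1.71, -1.64, -1.44 and -1.29 in P200 replicates 1 to 4. The groups overlapped, with P20 replicate 2 above 2 of the P200 arrays. The mean went from -1.73 ± 0.18 to -1.52 ± 0.19 (SD, n = 4 each), a difference of 0.21 ± 0.12 (SE) that did not pass (limma, adjusted p = 0.358). Without P200 replicate 4 the difference was 0.13. Its 95% interval over all arrays ran from -0.06 to 0.48, so a rise as large as that of Tyro3 lay outside it and a smaller one did not.

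Mertk, the kinase most closely tied to engulfment in macrophages, was at -3.44, -2.96, -3.37 and -3.06 at P20 and at -3.27, -3.15, -3.2 and -3.34 at P200. Every P200 value fell inside the P20 range. The difference of the means was -0.04 ± 0.12 (SE, 95% interval -0.31 to 0.24; limma, adjusted p = 0.89), and its sign turned under some other settings, given in the closing section. P20 arrays spread more widely, with an SD of 0.23 against 0.08 at P200.

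**Figure D3:**
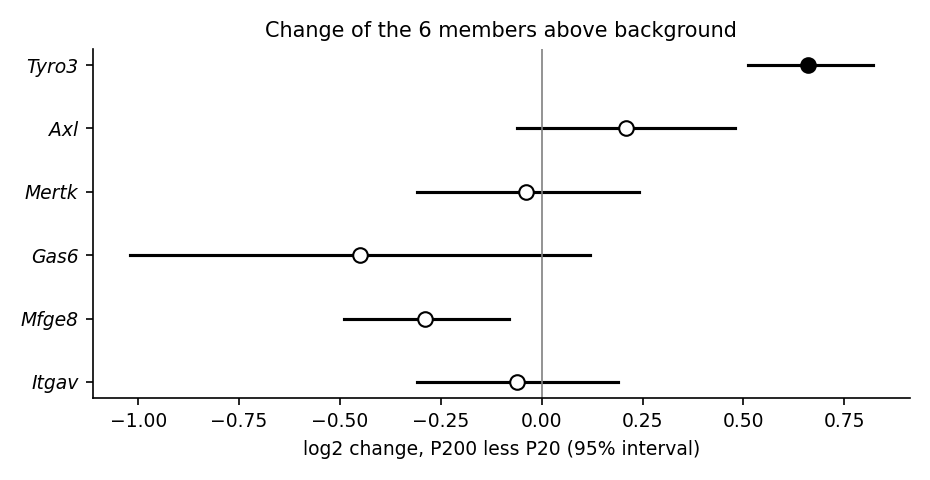
Change of the 6 tested genes, P200 less P20, on the log2 scale, with the 95% interval of the limma fit (n = 4 arrays per group); the filled circle passed the adjusted test and open circles did not. Tyro3 lies at 0.66, and the intervals of Axl, Mertk, Gas6 and Itgav include 0.

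The 3 kinases were also set against each other within each array, since a gene that passes beside one that does not is not thereby different from it. The change of Tyro3 exceeded that of Mertk by 0.7 ± 0.11 (SE): the within-array difference was 2.58 to 3.05 at P20 and 3.42 to 3.67 at P200, without overlap. The change of Tyro3 exceeded that of Axl by 0.45 ± 0.13 (SE), from 1.11 to 1.51 at P20 and from 1.62 to 2.02 at P200, again without overlap. Each gave p = 0.0286 in a two-sided exact permutation test over the 8 arrays, the smallest that 4 against 4 allows, and an adjusted p of 0.0571 over the 4 differences examined, which missed the threshold. With only these differences at the smallest p, 0.0571 was the lowest adjusted p they could reach. The 95% intervals were 0.43 to 0.98 against Mertk and 0.14 to 0.77 against Axl. Axl and Mertk differed in their change by 0.25 ± 0.13 (SE, 95% interval -0.07 to 0.56), with overlapping groups (exact permutation p = 0.0857, adjusted p = 0.0857). The height of such a difference compares separate probes and has no meaning of its own; only its shift between groups does. With quantile normalization both Tyro3 differences passed (exact permutation, adjusted p = 0.0381 each), and with normexp background correction all 4 differences did (adjusted p = 0.0286 each). The Tyro3 differences were at the smallest p in the main setting too, so these passes turned on other differences also reaching it.

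**Figure D4:**
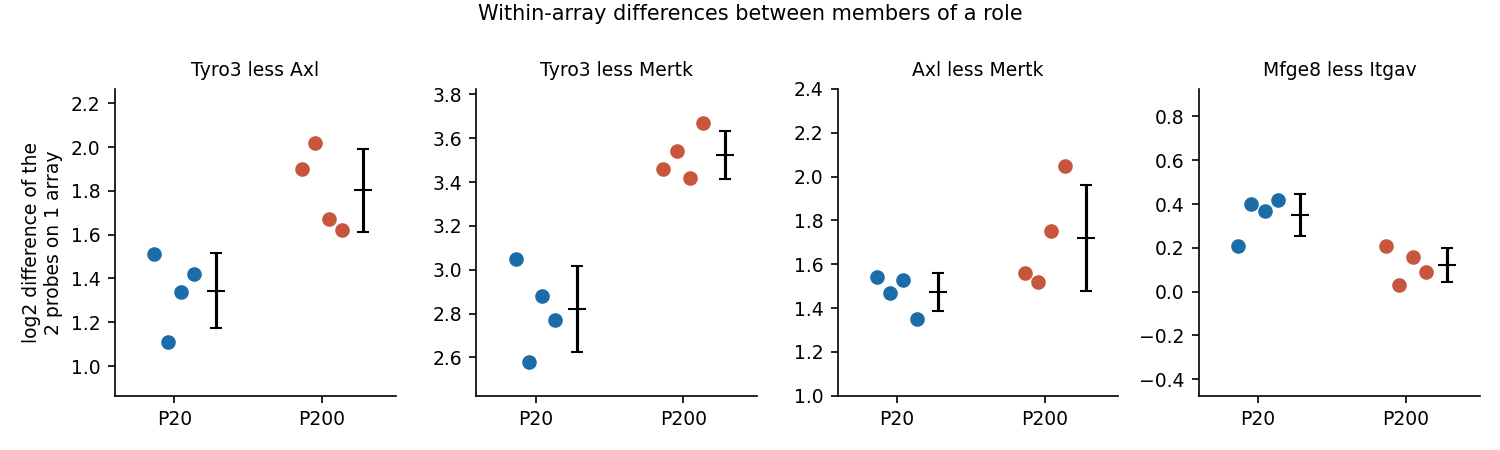
Difference of 2 probes on the same array, in log2 units, for the 4 pairs of genes examined; circles are arrays (P20 blue, P200 red), bars the mean and SD (n = 4). Tyro3 less Mertk runs from 2.58 to 3.05 at P20 and from 3.42 to 3.67 at P200, and Mfge8 less Itgav touches at 0.21.

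Gas6, the vitamin K-dependent ligand of all 3 kinases, was at -4.98, -5.2, -4.42 and -4.47 at P20 and at -5.81, -5.17, -5.13 and -4.77 at P200. It was above background on all 8 arrays, with processed signals of 33.3 to 70, and P200 replicate 1 was the lowest. The groups overlapped, and the difference of -0.45 ± 0.25 (SE, 95% interval -1.02 to 0.12) did not pass (limma, adjusted p = 0.326). The difference moved with the background method: it was -0.13 with normexp correction and -0.15 from the deposited spot medians. Normexp correction adds an offset of 50 here, and the deposited medians keep their background. Both shrink log2 differences of dim probes by construction, for Gas6 and for the dim genes below. Leaving out P200 replicate 1 gave -0.26.

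Pros1, the other ligand, was above background on 0 of 8 arrays. Its values were -7.57, -8.49, -7.87 and -7.83 at P20 and -8.25, -6.92, -8 and -7.67 at P200, and on 3 arrays of each group the scanner software had replaced the signal by a surrogate. The lowest signals marked well above background on these arrays were -7.5 to -6.45. Pros1 therefore has only an upper bound in both groups, and no fold is given. Its change could not be set against that of Gas6.

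Mfge8, the secreted bridge between phosphatidylserine and alpha V integrins, was at -0.36, -0.23, -0.34 and -0.23 at P20 and at -0.83, -0.49, -0.47 and -0.51 at P200. Every P200 array lay below every P20 array. Groups without overlap in that direction occurred in 9.76% of all tested genes, and in either direction in 19.4%. The mean went from -0.29 ± 0.07 to -0.58 ± 0.17 (SD, n = 4 each), a difference of -0.29 ± 0.09 (SE, 95% interval -0.49 to -0.08) with an unadjusted p of 0.0134 that did not pass after adjustment (limma, adjusted p = 0.089). The adjusted p was 0.058 to 0.457 over the 20 other settings and passed in none. Without P200 replicate 1, the lowest array, the difference was -0.20 (limma, adjusted p = 0.103).

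Itgav, the alpha V subunit through which Mfge8 reaches the cell, was at -0.57, -0.63, -0.72 and -0.64 at P20 and at -1.05, -0.52, -0.63 and -0.6 at P200. Apart from P200 replicate 1 the groups lay over each other, and the difference was -0.06 ± 0.11 (SE, 95% interval -0.31 to 0.19; limma, adjusted p = 0.822). Without that array the sign turned, to 0.06. Within arrays, Mfge8 less Itgav went from 0.21 to 0.42 at P20 to 0.03 to 0.21 at P200, a shift of -0.23 ± 0.06 (SE, 95% interval -0.38 to -0.08), with P20 and P200 touching at 0.21. It gave an exact permutation p of 0.0571, and 0.0762 adjusted over the 4 differences. That shift was -0.26 without P200 replicate 1, on which both genes were lowest, so it did not rest on that array. Among the beta partners of alpha V, Itgb3 differed by -0.1 and did not pass, and Itgb5 was above background on 0 arrays.

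Timd4, which binds phosphatidylserine directly and marks long-lived resident macrophages, was above background on 0 of 8 arrays with either of its 2 probes. The brighter probe lay between -8.57 and -7.54 and the dimmer between -8.82 and -7.8 over the 8 arrays, and all values were surrogates. The probes lie at chr10:31929373-31929432 and chr10:31927513-31927572 on rn4. Timd4 thus has only an upper bound at both passages.

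Cd93 was above background on 1 of 8 arrays, P20 replicate 1. Its values were -6.38, -6.97, -6.3 and -6.74 at P20 and -8.23, -7.13, -7.46 and -7.13 at P200. All P200 values lay below all P20 values, as in 9.76% of all tested genes. Cd93 itself did not enter the test, most of its values were not above background, and both groups have only a bound, so no fold is given. Of the 11 endothelial markers listed beside it, Kdr, Tek, Tie1, Emcn and Cldn5 were above background on 0 arrays. Pecam1, Cdh5, Vwf and Eng were above background on all 8 and Esam on 7, and these did not pass the test. The summed signal of that list was 2.83 to 3.51 at P20 and 3.28 to 4.08 at P200, and its part in the Cd93 values was not tested. Flt1, a VEGF receptor of that list, was at least 5.38-fold higher at P200 (limma, adjusted p = 0.00375), and differed by 0.95 with normexp correction and by 1.18 from the deposited spot medians, both short of that bound.

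P200 replicate 1 was the lowest P200 array for 5 of the 6 tested genes, Tyro3 included, whereas it was the lowest for 29.8% of all tested genes. With the probes too dim to test added, that array was the lowest for 7 of the 10, Pros1 and Cd93 among them, which were not above background on it. It also differed in its place on the slide: row 1 held P20 replicate 1 and P200 replicates 2 to 4, and row 2 the rest. Within row 1, P200 less P20 was 0.7 for Tyro3, 0.44 for Axl, 0.21 for Mertk, -0.04 for Gas6, -0.13 for Mfge8 and -0.01 for Itgav. Within row 2 it was 0.57, -0.04, -0.15, -1.11, -0.57 and -0.38 in the same order. Tyro3 was thus higher at P200 within each row, while Axl and Mertk had opposite signs in the rows. Each row has 1 array of one passage, so these values have no test. With the row as a block, Tyro3 differed by 0.63 (limma, adjusted p = 0.0037), Axl by 0.20, Mertk by 0.03, Gas6 by -0.58, Mfge8 by -0.35 and Itgav by -0.20, and no gene but Tyro3 passed.

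The pattern of Tyro3 over the arrays was compared with those of 9727 other genes that were above background on all 8 and carry a RefSeq symbol, unnamed loci left out. The nearest of these were Krt79, a keratin gene on the alveolar macrophage marker list, with a root mean square difference of 0.047 after each gene was centred, and Got1l1, a gene related to aspartate aminotransferase, with 0.067. Krt79 differed by 0.7 ± 0.09 (SE; limma, adjusted p = 0.000996) and Got1l1 by 0.67 ± 0.08 (SE; limma, adjusted p = 0.000677). Likeness was chosen over 8 arrays from these same values and is a description.

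The genes beside each member were read in the same way. Over all tested genes 11.4% passed in either direction, and the passing neighbours named below are not read as more than that share. Of the 5 tested genes on each side of Tyro3 in the GRCr8 order, 0 of 10 passed, with differences from -0.48 (Ltk) to 0.18 (Itpka) and a median of -0.03. Among the 10 neighbours of Mertk, on the same chromosome 3, Bcl2l11, which encodes the cell death protein Bim, rose by 0.79 ± 0.1 (SE; limma, adjusted p = 0.000819). Among those of Mfge8, Polg, the mitochondrial DNA polymerase, and Kif7 were higher, by 0.42 and 0.62. Among those of Itgav, Zswim2 was higher by 0.98, and Nckap1, a subunit of the WAVE actin regulator, was lower, at -1.28, as was LOC103691841, at -1.32. Axl had 1 lower neighbour, Actmap at -0.36, and Gas6 had 0. The GRCr8 table puts 4 of the 9 genes, Tyro3, Mertk, Itgav and Cd93, on chromosome 3.

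Around these genes, 8 lists of the wider uptake machinery, also chosen with earlier results of these data known, were counted. Of 117 entries 114 were on the array and 87 were tested; 7 were higher and 7 lower at P200, which is 16.1% against 11.4% of all genes, and 73 did not pass. The median change over the 87 was -0.04. By list the share that passed ran from 0% to 50% of 5 to 20 tested genes, and each is to be read beside the same 11.4%. The count of 14 fell to 7 when arrays were centred on their median, to 5 with no filter on dim probes, and to 9 without P20 replicate 3 or without P200 replicate 3; with the slide row as a block it was 11.

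**Figure D5:**
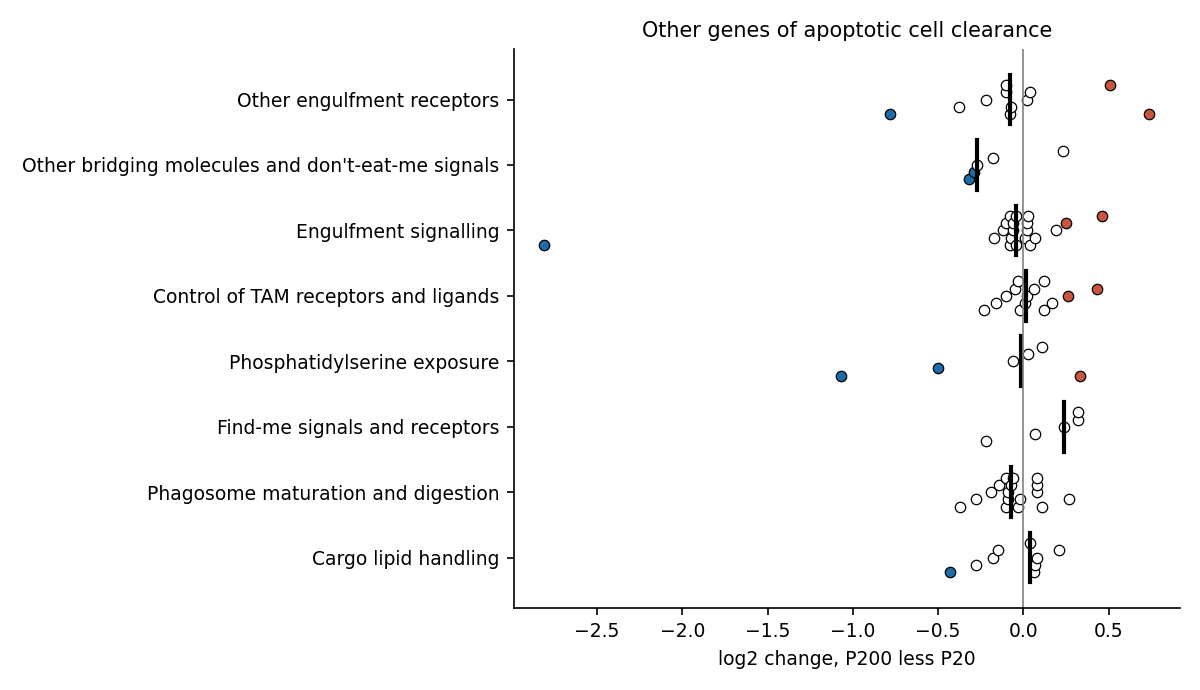
Change of each tested gene of the 8 lists, P200 less P20, on the log2 scale; red passed the adjusted limma test as higher, blue as lower, open circles did not pass, and the black bar is the median of the list. Src, at the far left, is drawn at its measured difference, although it was not well above background at P200; Lrp1 is at 0.74.

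Among other engulfment receptors, 2 of 11 tested genes were higher, 1 was lower and 8 did not pass, with a median of -0.08. Lrp1, the large endocytic receptor that recognises calreticulin on dying cells, rose by 0.74 ± 0.10 (SE; limma, adjusted p = 0.00157). Scarb1, a scavenger receptor for lipoproteins that also binds phosphatidylserine, rose by 0.51 ± 0.05 (SE; limma, adjusted p = 0.000291). Itgam, the alpha chain of complement receptor CR3, fell by 0.78 on the log2 scale, with an SE of 0.13 (limma, adjusted p = 0.00528), a call lost when its probes were averaged (adjusted p = 0.0576). Its beta chain Itgb2 differed by -0.22 and the scavenger receptor Cd36 by -0.38 without passing. Lrp1 and Scarb1 passed under all 20 other settings.

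Bridging molecules and don't-eat-me signals had 5 tested genes, of which 0 were higher, 2 were lower and 3 did not pass, with a median of -0.27. Cd47, the surface signal by which living cells avoid being eaten, fell by 0.29 on the log2 scale (SE 0.07; limma, adjusted p = 0.0299). Its receptor on the macrophage, Sirpa, differed by 0.23 and did not pass. Edil3, a bridge to alpha V integrins that resembles Mfge8, fell by 0.32 on the log2 scale (SE 0.07; limma, adjusted p = 0.0216). The call on Cd47 was lost in 11 of 20 other settings and that on Edil3 in 7. The genes of the C1q chains, C1qa, C1qb and C1qc, which macrophages commonly express, and Thbs1 were above background on 0 arrays.

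In engulfment signalling, 2 of 20 tested genes were higher and 1 was lower, with a median of -0.04. Rac2, the Rac GTPase of blood cells, rose by 0.46 ± 0.09 (SE; limma, adjusted p = 0.0111), a call lost with no filter on dim probes (adjusted p = 0.0993). Abl1, a cytoplasmic kinase, rose by 0.25 ± 0.06 (SE; adjusted p = 0.0302), a call lost in 10 of 20 other settings. Src was at least 2.9-fold lower (limma, adjusted p = 3.98e-06) on the probe used, while its 2 other probes were above background on 0 arrays. Its difference was -0.52 with normexp correction and -0.6 from the deposited spot medians, both short of that bound, and with no filter on dim probes another probe stood for Src and gave 0.21. The relay from receptor to Rac, Elmo1 (-0.12), Dock1 (-0.06), Dock2 (-0.08), Crk (-0.08) and Rac1 (-0.1), did not pass.

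Genes known to control TAM receptors or their ligands had 2 of 14 higher, 0 lower and 12 not past the test, with a median of 0.01. Klf4, a myeloid transcription factor, rose by 0.43 ± 0.08 (SE; limma, adjusted p = 0.0121), a call lost with median centring (adjusted p = 0.101) and with no filter (adjusted p = 0.11). Vkorc1, which recycles the vitamin K needed to carboxylate Gas6 and protein S, rose by 0.26 ± 0.06 (SE; adjusted p = 0.0312), a call lost in 10 of 20 other settings. Ggcx, the carboxylase itself (0.12), the receptor-shedding proteases Adam10 (0.12) and Adam17 (-0.03), and the liver X receptors Nr1h2 (0.01) and Nr1h3 (0.02) did not pass.

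Of 6 tested genes of phosphatidylserine exposure, 1 was higher, 2 were lower and 3 did not pass, with a median of -0.01. Xkr8, the scramblase that caspases switch on in dying cells, fell by 1.07 on the log2 scale (SE 0.20; limma, adjusted p = 0.0106) and was above background on 3 of 4 P200 arrays. It did not pass with normexp correction (-0.32, adjusted p = 0.0763), from the deposited spot medians (-0.37, adjusted p = 0.135) or with no filter on dim probes (adjusted p = 0.0664). Plscr1, a phospholipid scramblase family member, fell by 0.5 on the log2 scale (SE 0.08; limma, adjusted p = 0.00535), a call lost with median centring (adjusted p = 0.0761) and with no filter (adjusted p = 0.0605). Ano6, the calcium-activated scramblase, rose by 0.33 ± 0.07 (SE; adjusted p = 0.02), a call lost in 6 of 20 other settings.

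Of 5 tested genes for find-me signals and their receptors 0 passed, although their median was 0.24; the smallest p was that of P2ry2, a nucleotide receptor, at -0.22 (limma, adjusted p = 0.123). Of 17 genes of phagosome maturation and digestion 0 passed, and the median was -0.07. The smallest p there was that of Ctsl, a lysosomal protease, at -0.28 ± 0.09 (SE; limma, adjusted p = 0.074). With the slide row as a block it passed (-0.38, adjusted p = 0.0328). Of 9 genes that handle cargo lipid, Cpt1a, which brings fatty acids into mitochondria, fell by 0.43 on the log2 scale (SE 0.10; limma, adjusted p = 0.0216), a call lost in 7 of 20 other settings, and 8 did not pass, among them the sterol exporters Abca1 (-0.28) and Abcg1 (0.06).

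Marker lists of macrophages and of other cells were read beside these counts, with 11.4% of all tested genes past the test. Of the 12 tested general macrophage markers 1 passed: Cd14, the lipopolysaccharide co-receptor, fell by 0.91 on the log2 scale (SE 0.12; limma, adjusted p = 0.0018). Of 7 tested alveolar macrophage markers Krt79 (0.7) and Cd9 (0.41) rose and Siglec5, at -1.69, fell, the call on Cd9 being lost in 9 of 20 other settings, while 4 did not pass. Their list had a summed signal of 75.2 to 79.3 at P20 and 91.9 to 95.5 at P200. Sums of linear signal are weighted to the brightest probes of a list and do not describe its genes one by one. Dendritic cell markers summed to 6.65 to 7.55 at P20 and 5.05 to 6.32 at P200, with Batf3 (-1.47) and Clec9a (-0.87, and -0.44 with normexp correction) lower. Cd83 (0.02) did not pass, and Flt3, Xcr1 and Ccr7 were above background on 0 arrays. Granulocyte and mast cell markers summed to 1.53 to 1.69 and 0.681 to 0.871, with Camp lower (-1.13) and Mpo, Elane and S100a8 among 8 above background on 0 arrays. Lung epithelial markers summed to 0.138 to 0.297 and 0.16 to 0.233, with Epcam and Cdh1 among 7 above background on 0 arrays and Cldn18 at least 3.48-fold lower. Cldn18 was at -0.55 with normexp correction and at -0.7 from the deposited spot medians, where it did not pass (limma, adjusted p = 0.0531). The other tested genes of that list, Ager (-0.1) and Foxj1 (0.47), did not pass. Lymphocyte markers summed to 0.219 to 0.399 and 0.304 to 0.391, with Nkg7 higher (1.49) while Cd3d (-0.1) and Lck (-0.09) did not pass. Fibroblast markers summed to 1.33 to 1.52 and 1.51 to 1.7, with 0 past the test. Platelet markers summed to 0.106 to 0.119 and 0.0343 to 0.0683, with Pf4 at least 7.37-fold lower. Pf4 was at -1.08 with normexp correction and at -1.38 from the deposited spot medians, and Gp9, above background on 6 arrays, was not tested. Such bounds hold for the background subtraction of the scanner software. Differences were smaller with those settings, which shrink them for dim probes by construction. Whether the mix of cells in a flask had a part in the values of the uptake genes was not tested, and in bulk RNA fewer cells with a transcript and less of it per cell cannot be told apart.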

How the data were processed

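RNA from 8 cultures of NR8383 cells was measured on single-colour Agilent arrays, 4 at P20 and 4 at P200, which the labels call biological replicates. The authors deposited each spot's intensity on a linear scale, made with Agilent Feature Extraction 11.0.1.1 per the submitters' processing notes; per the file headers it subtracts background and puts a surrogate where a spot is near background. The deposited value table holds the raw spot median intensity, with arrays numbered otherwise within P200; numbers here follow the scanner files.

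The 4259 control spots of 62976 and spots marked as outliers were left out, spots of a probe were averaged as log2, and the array's 75th percentile was subtracted. Probes well above background on all 4 arrays of a group were kept (19458), and the brightest stood for its gene. Of the 45598 probes, 21109 were named through RefSeq by accession and 7108 by symbol; 17381 kept the file's name. The test was limma 3.58.1 (lmFit, eBayes) in R 4.3.3, without covariates, two-sided, and was tested on simulated data. The simulated noise was independent for each gene and array, so effects of slide row or shared culture were not covered by it. A fold marked "at least" sets the bright group against the lowest well-above-background signal, or the probe's own where higher, of each dim array. Normexp correction was run with an offset of 50, which shrinks log2 differences of dim probes, as does the background kept in the deposited medians. The number of arrays limits the precision.

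The members and lists were chosen with earlier results of these data known. An entry of the pathway lists is not reported here and was left out of their counts. Every member is named; from each pathway list, the 4 or fewer called genes of largest absolute change, or else the gene with the smallest p; from each marker list, genes past the test; and the 2 genes nearest to a member past the test. Others named beside them (partners, chains, exporters, neighbours, other markers) were chosen after their values were seen.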

Additional observations from a re-analysis of the deposited data

Results flagged for a closer look

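Mfge8 on P200 replicate 1 was at -0.83, while the nearest of the other 3 P200 arrays was at -0.51. The gap was 0.889 of the whole range of the group, above Dixon's 95% critical value for 4 samples. It was the single value so marked among 20 combinations of probe and group examined, and chance marks about 1 in 20. The same array was the lowest for 7 of the 10 probes, of which those of Pros1 and Cd93 were not above background on it.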

How the results depend on the processing

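Tyro3 passed, and no other member did, under all 20 other settings and in the test over probes. Its difference was 0.63 to 0.70 when 1 array was left out. Tyro3 has a single probe and 0 outlier spots, so the mean of probes, the test over probes and kept outlier spots leave its values as they are. The filters and the variance trend left its difference at 0.66. Differences close to 0 changed sign: Mertk was 0.03 with arrays centred on their median, 0 with normexp correction, 0.03 with the slide row as a block, 0.05 without P20 replicate 2 and 0.01 without P20 replicate 4, and Itgav was 0.01 with median centring and 0.06 without P200 replicate 1. Src, at -2.81, was 0.21 with no filter, where another probe stood for the gene. Leaving out 1 array gave -0.11 to 0.05 for Mertk and -0.12 to 0.06 for Itgav. Median centring moved the median change of all genes to 0.066 and the count of genes from 1791 to 1157 (736 higher, 421 lower); no filter moved them to 0.101 and 800 (386 higher, 414 lower), in both cases with fewer uptake genes past the test, 7 and 5 in place of 14; the cause was not tested. Leaving out 1 array gave 1221 to 1707 genes and 9 to 13 uptake genes.

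The differences between genes passed at the adjusted exact permutation threshold with quantile normalization (Tyro3 less Axl 0.47, Tyro3 less Mertk 0.7, Mfge8 less Itgav -0.22) and with normexp (0.44, 0.63, -0.2, and Axl less Mertk 0.19). Without P20 replicate 1 they were 0.51, 0.78 and -0.28, each with an adjusted p of 0.0381. In the main setting both Tyro3 differences were already at the smallest p, so these passes turned on other differences also reaching it. Leaving out 1 array gave ranges of 0.38 to 0.52, 0.62 to 0.78, -0.28 to -0.20 and, for Axl less Mertk, 0.14 to 0.31. These were not run for blocks, filters, the variance trend or the mean of probes.

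With the replicate number as a block, 1496 genes passed and Tyro3 differed by 0.66 (limma, adjusted p = 0.00346). Deviations of same-numbered arrays correlated at -0.003 to 0.281 with the scanner files' numbers and at -0.111 to 0.225 with those of the deposited value table, with the best match at the same number for 2 of 4 either way, so neither numbering showed pairing; a block was fitted for the first. Probe signal near background limits Gas6, Pros1, Timd4 and Cd93.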
